A study of Mus musculus with 4 samples.

Results

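The aminoacyl-tRNA synthetase genes of splenic B cells were examined across the RNA-seq of MIZ-1WT and MIZ-1DPOZ mice. The members were given as a family of genes and were found by symbol, 36 of the 41214 genes in the count table, of which 20 encode cytosolic and 16 encode mitochondrial enzymes. The rule for members used no measured value. MIZ-1, encoded by *Zbtb17*, is a zinc finger transcription factor, and MIZ-1DPOZ mice carry a floxed sequence for its POZ domain that Mb1-Cre removes, which leaves a truncated protein without that domain. Mb1-Cre is driven from the *Cd79a* locus and acts in B lineage cells, so any other cell in the fraction keeps full-length MIZ-1. B220+ cells were taken from spleen without stimulation, RNA was depleted of ribosomal RNA, and 2 libraries were made per genotype. The labels give neither age nor sex of the animals behind each library, nor whether the MIZ-1WT animals carried Cre.

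Each synthetase joins 1 amino acid, or in the case of *Eprs* a pair of amino acids, to the matching tRNAs. Cytosolic enzymes feed the ribosomes of the cytoplasm and mitochondrial enzymes, encoded by separate nuclear genes for most amino acids, feed the ribosomes inside the organelle. Several cytosolic enzymes sit together in a multisynthetase complex held by scaffold proteins. Many cytosolic synthetase genes are known targets of ATF4, the transcription factor of the amino acid response, which also induces genes of amino acid uptake and synthesis. B cells raise protein synthesis when they are activated or become plasma cells.

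Counts on genes lay between 43026814 and 46387209 per library, and log2 levels correlated at 0.994 within MIZ-1WT, at 0.993 within MIZ-1DPOZ and between 0.966 and 0.978 across genotypes. *Zbtb17* gave 2087 and 1946 counts in MIZ-1WT replicates 1 and 2 and 1774 and 1669 counts in MIZ-1DPOZ replicates 1 and 2. Its log2 fold change was -0.32 with a standard error of 0.0561 (adjusted p = 0.00857, edgeR), and counts over the whole gene cannot separate the deleted part from the rest. *Xist*, the RNA of the inactive X chromosome, had 49 and 60 counts in MIZ-1WT and 38145 and 40838 counts in MIZ-1DPOZ. The Y-linked *Ddx3y* had 15840 and 14896 counts in MIZ-1WT and 680 and 622 in MIZ-1DPOZ. Sex of the animals and genotype therefore cannot be told apart in any comparison that follows. B lineage RNA was abundant in all libraries. In MIZ-1DPOZ 7 of 10 pan-B genes fell, against 18.9% of all genes tested, with a median log2 fold change of -0.23 over the list. In bulk RNA, fewer cells of a type and less RNA per cell cannot be told apart.

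All 36 synthetase genes were expressed, with between 354 and 22307 counts per gene and library, and all were tested. Compared per length, as CPM (normalised counts scaled to a common library total) per kilobase of annotated exon, cytosolic genes had a median level of 25.02 and mitochondrial genes a median of 5.84. *Vars*, the valyl-tRNA synthetase, was the highest at 84.9 CPM per kilobase over the 4 libraries, ranging from 81.0 to 88.6. It was followed by *Dars*, the aspartyl enzyme, at 37.9 with a range of 33.1 to 42.5 that did not reach that of *Vars*. The 18 highest levels all belonged to cytosolic genes. *Yars* and *Cars*, for tyrosine and cysteine, were the 2 cytosolic genes among the mitochondrial ones, at 9.09 and 7.01 CPM per kilobase. Among mitochondrial genes the level ran from 13.3 for *Hars2* down to 1.83 for *Lars2*, the histidyl and leucyl enzymes. Of the 35 pairs of neighbours in this order, 28 had overlapping ranges over the 4 libraries and 7 were separate, so most of the order is not resolved. The order also depends on annotated exon length. *Eprs*, at 220 to 299 CPM per library over 18102 annotated bases, had rank 17.

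**Figure D1:**
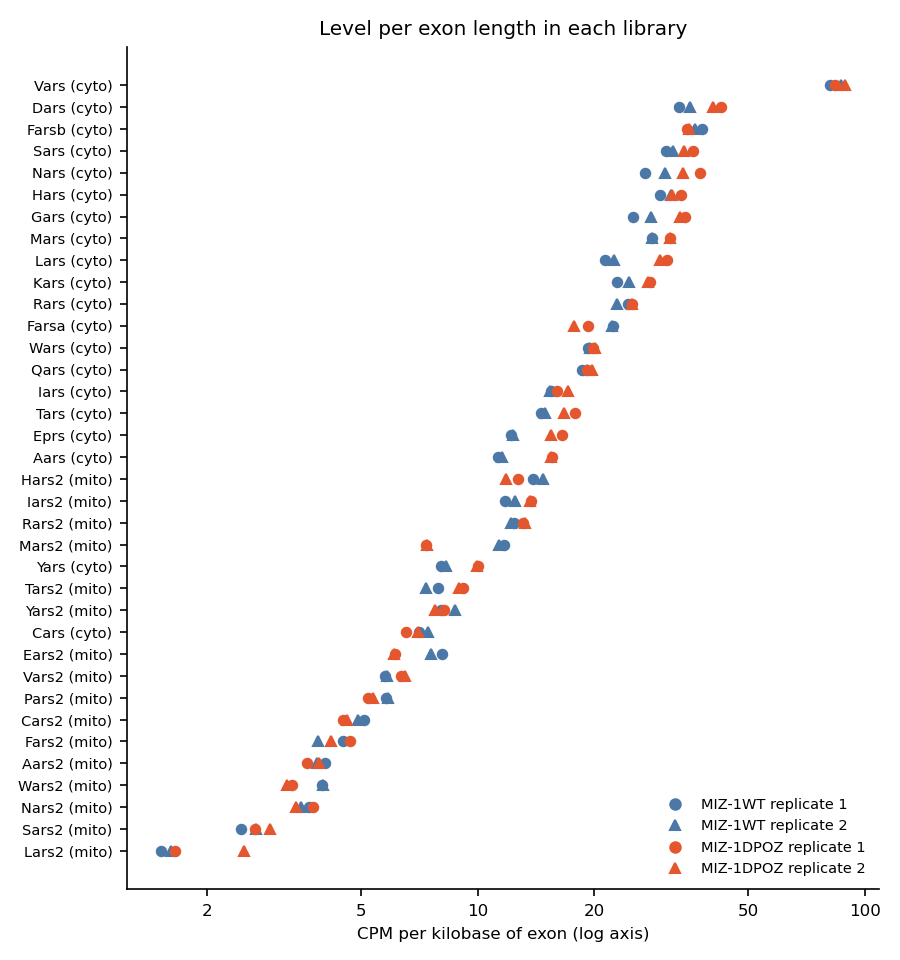
Level of each synthetase gene in each library, as CPM per kilobase of exon on a log axis, ordered by the mean over the 4 libraries; circles and triangles are replicates 1 and 2, blue is MIZ-1WT and red is MIZ-1DPOZ. *Vars* stands alone at the top near 84.9, and the 18 highest genes are all cytosolic.

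Between genotypes, 13 of 36 synthetase genes rose and 5 fell in MIZ-1DPOZ at a Benjamini-Hochberg adjusted p under 0.05 from the quasi-likelihood test of edgeR, with the adjustment made over all 14554 genes tested. Of all genes tested, 21.1% rose and 18.9% fell, or 40% in either direction, and of the synthetase genes 36.1% rose and 13.9% fell. Both MIZ-1DPOZ libraries lay above both MIZ-1WT libraries for 20 members, against 37.2% of all genes, and below them for 9 members, against 37.6% of all genes. Among cytosolic genes 11 of 20 rose and 1 fell, and among mitochondrial genes 2 of 16 rose and 4 fell, a contrast of compartments that was not tested as such. The median log2 fold change was 0.16 for cytosolic genes and -0.035 for mitochondrial genes, against -0.0064 for all genes tested. With library size alone as scaling, the mitochondrial median was 0.026 and that of all genes 0.054. The mitochondrial median thus lay below that of all genes under both scalings, but not in every fit. With a filter on a mean of 30 CPM, which kept 8 mitochondrial genes, it was 0.055 against -0.0026. Without MIZ-1DPOZ replicate 2 it was 0.020 against -0.0016, and without MIZ-1WT replicate 1 it was -0.0012 against -0.0048. Its place relative to all genes is therefore not fixed. Summed over the 20 cytosolic genes, the level was 2394 and 2489 CPM in MIZ-1WT replicates 1 and 2, and 2778 and 2738 CPM in MIZ-1DPOZ replicates 1 and 2. The 16 mitochondrial genes summed to 658 and 655 CPM in MIZ-1WT and 617 and 619 CPM in MIZ-1DPOZ. Neither sum overlapped between genotypes. The lower mitochondrial sum rested on *Mars2*. The sum of the other 15 genes, chosen after the values were seen, was 525.8 and 526.3 CPM in MIZ-1WT and 534.4 and 534.9 CPM in MIZ-1DPOZ. That sum was slightly higher in MIZ-1DPOZ without overlap, a much smaller difference relative to its level than that of the cytosolic sum. In the same libraries all 16 macrophage genes and all 10 proliferation genes of the marker lists rose, with median log2 fold changes of 1.98 and 2.03, and their part in the synthetase values was not tested. With 2 libraries against 2, an exact permutation test of a single value cannot go below p = 0.333. The count of 13 dropped to 3 without MIZ-1WT replicate 1 and to 6 without MIZ-1WT replicate 2, and the count of 5 dropped to 1 and 2, with calls over all genes dropping from 5822 to 2204 and 2825.

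**Figure D2:**
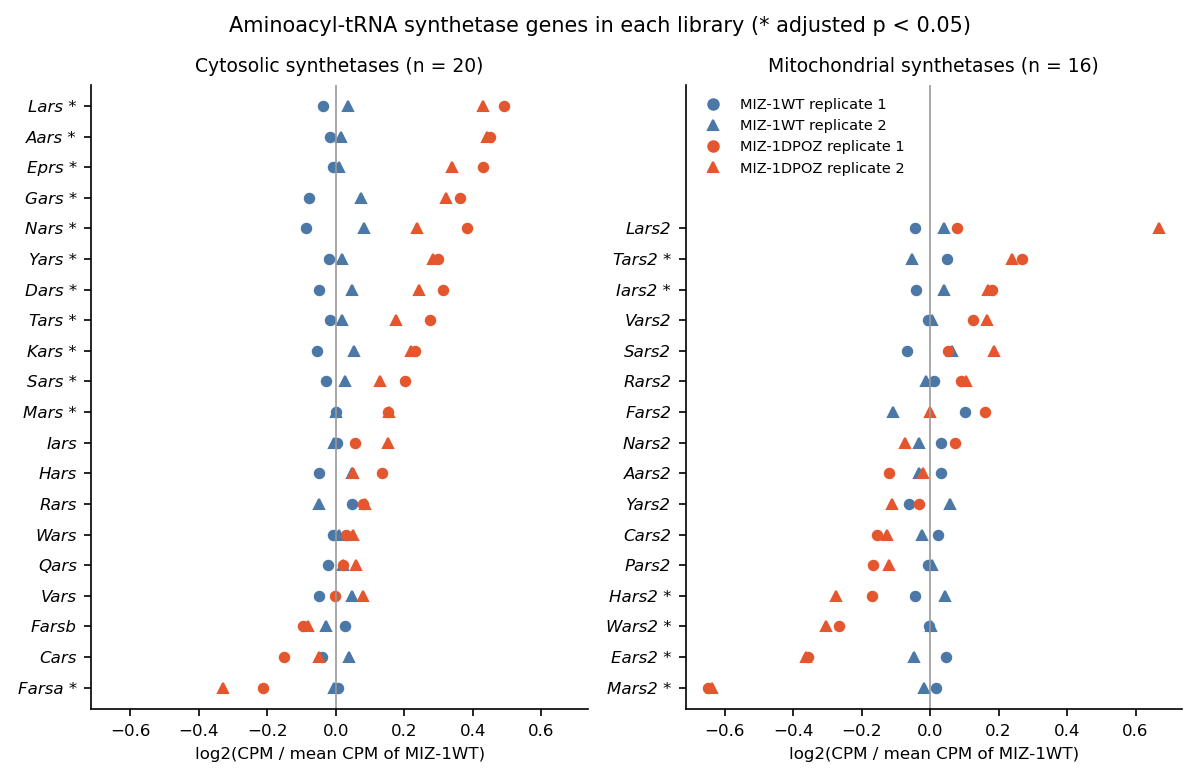
Log2 ratio of the CPM of each synthetase gene in each library to its mean CPM in MIZ-1WT, with cytosolic genes on the left and mitochondrial genes on the right; circles and triangles are replicates 1 and 2, blue is MIZ-1WT and red is MIZ-1DPOZ, and an asterisk marks an adjusted p under 0.05. Red points lie right of blue without overlap for 15 of the 20 cytosolic genes, and *Mars2* lies farthest to the left.

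Among the cytosolic genes, *Aars* and *Lars* had the largest log2 fold changes. *Aars* (ENSMUSG00000031960), the alanyl-tRNA synthetase on chromosome 8 from 111033144 to 111057664, had 4569 and 4502 counts in MIZ-1WT and 6887 and 6310 in MIZ-1DPOZ. Both MIZ-1DPOZ libraries lay above both MIZ-1WT libraries, at 144 ± 0.659 CPM (SD, n = 2) against 106 ± 1.68 CPM (SD, n = 2). The log2 fold change of *Aars* was 0.45 with a standard error of 0.0436 (adjusted p = 0.00183, edgeR), a 1.36-fold higher level. *Lars*, the leucyl enzyme, had 4999 and 5074 counts in MIZ-1WT and 7866 and 6960 in MIZ-1DPOZ. Its log2 fold change was 0.46 with a standard error of 0.0508 (adjusted p = 0.00238, edgeR), and the genotypes did not overlap. *Eprs*, which charges both glutamyl and prolyl tRNAs from 1 protein, had 9614 and 9380 counts in MIZ-1WT and 14220 and 12314 in MIZ-1DPOZ. Its log2 fold change was 0.39 with a standard error of 0.0498 (adjusted p = 0.00357, edgeR), again without overlap. *Aars*, *Lars* and *Eprs* passed the threshold in each of 12 fits, the 11 alternatives included. *Aars* shares 14.3% of its exon length with *Exosc6* on the same strand, so part of its counting is uncertain. *Exosc6* had no row of its own in the deposited counts, so reads from the shared stretch may have been counted to *Aars*.

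*Yars*, the tyrosyl enzyme, had 2092 and 2068 counts in MIZ-1WT and 2842 and 2598 in MIZ-1DPOZ, a rise of 0.29 on the log2 scale with a standard error of 0.0514 (adjusted p = 0.00889, edgeR). *Gars*, the glycyl enzyme, whose single gene serves both cytosol and mitochondria, had 3430 and 3674 counts in MIZ-1WT and 5082 and 4553 in MIZ-1DPOZ, a rise of 0.34 on the log2 scale with a standard error of 0.0644 (adjusted p = 0.0107, edgeR). Both genes were higher in each MIZ-1DPOZ library than in either MIZ-1WT library, and so were the following pair. *Dars* had 6294 and 6475 counts in MIZ-1WT and 8823 and 7744 in MIZ-1DPOZ, a rise of 0.28 on the log2 scale with a standard error of 0.0544 (adjusted p = 0.0121, edgeR). *Kars*, the lysyl enzyme and the other gene with products in both compartments, had 4449 and 4614 counts in MIZ-1WT and 5915 and 5408 in MIZ-1DPOZ, a rise of 0.22 on the log2 scale with a standard error of 0.0529 (adjusted p = 0.0212, edgeR). The remaining cytosolic genes that rose were *Nars* (asparagine) by a log2 fold change of 0.31, *Tars* (threonine) by 0.23, *Sars* (serine) by 0.17 and *Mars* (methionine) by 0.15. The calls of *Yars*, *Gars*, *Dars* and *Kars* held in 10, 11, 11 and 10 of the 12 fits, and their adjusted p ranged from 0.00244 to 0.0778, from 0.00042 to 0.0778, from 0.00103 to 0.101 and from 0.00998 to 0.161, each highest without MIZ-1WT replicate 1. Those of *Nars*, *Tars*, *Sars* and *Mars* held in 11, 9, 6 and 6 fits, and their highest adjusted p, again without MIZ-1WT replicate 1, was 0.148, 0.15, 0.25 and 0.202.

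*Farsa*, the alpha subunit of phenylalanyl-tRNA synthetase, was the cytosolic gene that fell. It had 4437 and 4242 counts in MIZ-1WT and 4162 and 3541 in MIZ-1DPOZ, which gave 101 ± 0.556 CPM (SD, n = 2) against 84.1 ± 4.79 CPM (SD, n = 2). Its log2 fold change was -0.27 with a standard error of 0.0563 (adjusted p = 0.0148, edgeR) without overlap in CPM. Over the 12 fits its adjusted p ranged from 0.00428 to 0.103, and the call was lost without MIZ-1WT replicate 1 (0.103) and without MIZ-1WT replicate 2 (0.0861). *Farsb*, the beta subunit of the same enzyme, had 4332 and 4013 counts in MIZ-1WT and 4335 and 4040 in MIZ-1DPOZ and did not pass, with a log2 fold change of -0.09 and a 95% interval from -0.21 to 0.03. *Vars*, the most highly expressed member, had 19825 and 20398 counts in MIZ-1WT and 22307 and 21804 in MIZ-1DPOZ. Its CPM overlapped between genotypes, and its log2 fold change of 0.04 had an interval from -0.10 to 0.18. *Hars* and *Rars*, for histidine and arginine, had log2 fold changes of 0.09 and 0.08 with intervals from -0.05 to 0.24 and from -0.05 to 0.22, so changes of the size seen for *Aars* lie outside these intervals. The other 4 cytosolic genes that did not pass had log2 fold changes between -0.10 and 0.11.

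The calls were also counted by protein architecture. Of the 8 cytosolic enzymes in the multisynthetase complex 5 rose, with a median log2 fold change of 0.19, and of the 12 outside the complex 6 rose and 1 fell, with a median of 0.13. The scaffold gene *Aimp1* rose as well, with a log2 fold change of 0.19 (adjusted p = 0.0263, edgeR), while the scaffold genes *Aimp2* and *Eef1e1* had values of 0.05 and -0.17 and did not pass. Synthetases fall into a pair of structural classes by the fold of their catalytic domain. Of the 10 cytosolic class II genes 7 rose and 1 fell, with a median of 0.23, and of the 10 cytosolic class I genes 4 rose, with a median of 0.09. Among mitochondrial genes, 1 of 9 class I genes rose and 3 fell, and 1 of 7 class II genes rose and 1 fell. Over all genes tested 21.1% rose and 18.9% fell, and the mitochondrial class II genes, at 14.3% in each direction, lay near these shares. The counts describe members and were not tested against each other.

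Promoters are shown because the cytosolic members that rose include textbook targets of ATF4, whose composite element with C/EBP proteins has the letters TGATGNAA, or TTNCATCA on the other strand. RefSeq promoters of GRCm38.p6, each with 250 bases before and 50 bases after the annotated start, were held for 26 of the 36 members. The element was found on either strand in 5 of the 12 cytosolic promoters, in 0 of the 14 mitochondrial promoters and in 4.51% of 27025 promoters of all genes. The cytosolic genes with a match were *Aars*, *Gars*, *Iars*, *Tars* and *Yars*, of which *Iars*, the isoleucyl enzyme, had a log2 fold change of 0.11 and did not pass. The scanned cytosolic genes without a match were *Eprs*, *Dars*, *Kars* and *Sars*, which rose by 0.39, 0.28, 0.22 and 0.17, *Farsa*, which fell, and *Farsb* and *Qars*, which did not pass. Whether the element goes with the rise was not tested. Of the amino acid response genes described further on, 26 had a promoter sequence and 8 of these had a match. Among the 8, *Asns* rose and *Trib3* did not pass. A match of each synthetase gene is shown with 10 bases on each side, and with them the match in *Asns*. Capitals mark the element, each line reads 5′ to 3′ on the strand of the gene, and positions count from the RefSeq start of transcription.
*Aars*, chr8:111033841-111033868, plus strand, motif from 10: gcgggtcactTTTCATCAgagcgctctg
*Gars*, chr6:55037961-55037988, plus strand, motif from -30: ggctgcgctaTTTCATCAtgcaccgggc
*Iars*, chr13:49682127-49682154, plus strand, motif from 8: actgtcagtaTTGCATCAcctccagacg
*Tars*, chr15:11399656-11399683, minus strand, motif from -15: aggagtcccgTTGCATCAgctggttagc
*Yars*, chr4:129189896-129189923, plus strand, motif from 4: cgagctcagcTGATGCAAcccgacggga
*Asns*, chr6:7693215-7693242, minus strand, motif from -23: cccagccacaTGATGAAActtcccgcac

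A second motif, the E-box CACGTG, which reads the same on both strands, was found in 4 of the 12 cytosolic promoters (*Aars*, *Farsb*, *Iars* and *Tars*), in 1 of the 14 mitochondrial promoters (*Ears2*) and in 8.09% of all promoters. To set a gene that rose beside the one that fell most, the 250 bases before the starts of *Tars* and *Mars2* are given, with the composite element in capitals. The E-box of *Tars* lay after its start and does not overlap the element, and neither motif was found in the *Mars2* stretch.
*Tars*, chr15:11399659-11399908, minus strand: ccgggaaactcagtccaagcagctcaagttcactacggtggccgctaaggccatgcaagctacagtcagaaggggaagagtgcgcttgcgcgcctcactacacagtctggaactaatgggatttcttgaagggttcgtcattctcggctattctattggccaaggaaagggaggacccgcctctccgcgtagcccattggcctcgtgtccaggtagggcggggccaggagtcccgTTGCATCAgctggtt
*Mars2*, chr1:55236927-55237176, plus strand: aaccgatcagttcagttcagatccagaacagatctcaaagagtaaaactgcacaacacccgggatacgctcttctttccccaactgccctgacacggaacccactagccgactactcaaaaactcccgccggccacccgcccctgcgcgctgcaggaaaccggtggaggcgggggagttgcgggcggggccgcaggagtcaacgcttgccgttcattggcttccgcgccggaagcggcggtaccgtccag

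A match describes letters in a window and was not measured as binding in these data. The promoter counts rest on the members with a promoter sequence. Another 10 members had none and were not scanned, among them *Lars*, *Nars* and *Mars*, which rose in MIZ-1DPOZ.

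Of the mitochondrial genes, *Mars2* fell most. *Mars2* (ENSMUSG00000046994), the mitochondrial methionyl-tRNA synthetase on chromosome 1 from 55237177 to 55248470, had 5751 and 5399 counts in MIZ-1WT and 3954 and 3672 in MIZ-1DPOZ. The libraries did not overlap, at 130 ± 2.39 CPM (SD, n = 2) in MIZ-1WT and 83.4 ± 0.416 CPM (SD, n = 2) in MIZ-1DPOZ. The log2 fold change was -0.64 with a standard error of 0.0448 (adjusted p = 0.000932, edgeR), a 1.56-fold lower level. It stayed between -0.66 and -0.57 and below an adjusted p of 0.05 in all 12 fits. *Mars2* was the only member beyond a log2 fold change of 0.6 in either direction, a size that 5.3% of all genes reached on the lower side at an unadjusted p under 0.05.

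*Ears2*, the mitochondrial glutamyl enzyme, had 1814 and 1637 counts in MIZ-1WT and 1497 and 1376 in MIZ-1DPOZ, a difference of -0.36 on the log2 scale with a standard error of 0.0631 (adjusted p = 0.00882, edgeR). *Wars2*, for tryptophan, had 1031 and 999 counts in MIZ-1WT and 939 and 843 in MIZ-1DPOZ, a difference of -0.28 on the log2 scale with a standard error of 0.068 (adjusted p = 0.0225, edgeR). *Hars2* had 2593 and 2653 counts in MIZ-1WT and 2592 and 2222 in MIZ-1DPOZ, a difference of -0.22 on the log2 scale with a standard error of 0.0637 (adjusted p = 0.0386, edgeR). In CPM, all 3 genes were lower in both MIZ-1DPOZ libraries than in both MIZ-1WT libraries. Over the 12 fits the adjusted p ranged from 0.00193 to 0.0712 for *Ears2*, highest without MIZ-1WT replicate 1, and from 0.0298 to 0.199 for *Hars2*, highest without MIZ-1WT replicate 2. For *Wars2*, which was tested in 11 of them, it ranged from 0.0215 to 0.119, highest without MIZ-1WT replicate 2, and the calls of *Ears2*, *Hars2* and *Wars2* held in 11, 5 and 7 fits. *Hars2* and *Hars* are neighbours on opposite strands that share 195 exon bases, and the strand setting of the counting is not given in the sources used here, so reads in that stretch cannot be assigned.

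*Tars2* and *Iars2*, the mitochondrial threonyl and isoleucyl enzymes, were the members of this compartment that rose. *Tars2* had 2384 and 2138 counts in MIZ-1WT and 3023 and 2732 in MIZ-1DPOZ, a rise of 0.25 on the log2 scale with a standard error of 0.0586 (adjusted p = 0.0201, edgeR). Over the 12 fits its adjusted p ranged from 0.0118 to 0.129, highest without MIZ-1WT replicate 2, and the call held in 9. *Iars2* had a log2 fold change of 0.18, and its call held in 7 fits, with an adjusted p from 0.0123 to 0.241, highest without MIZ-1WT replicate 1. In *Iars2*, 22.9% of the exon length is shared with *Rab3gap2* on the opposite strand. *Lars2*, named after its values were seen, had 738 and 754 counts in MIZ-1WT and 876 and 1217 in MIZ-1DPOZ. Its log2 fold change of 0.40 had a standard error of 0.19 and did not pass (adjusted p = 0.143, edgeR). MIZ-1DPOZ replicate 2 stood well above the other 3 libraries, and the adjusted p ranged from 0.00161 without MIZ-1DPOZ replicate 1 to 0.486. The other 9 mitochondrial genes that did not pass had log2 fold changes between -0.14 and 0.15.

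The level of each cytosolic gene was then set against its mitochondrial partner for the same amino acid within each library, as a ratio of CPM per kilobase that does not depend on library scaling. There were 17 such pairs. In 8 pairs the ratio was higher in both MIZ-1DPOZ libraries than in both MIZ-1WT libraries, in 3 it was lower, and in 6 the genotypes overlapped, while of single genes 37.2% lay higher and 37.6% lower without overlap, so separation in itself is no result about the pairs. The pairs are also not independent, as *Eprs* enters 2 of the 8 and *Fars2* enters 2 of the 3. The ratio of *Mars* to *Mars2* was 2.42 and 2.48 in MIZ-1WT and 4.27 and 4.24 in MIZ-1DPOZ, a mean log2 difference of 0.80. The log2 fold changes of the 2 genes were 0.15 for *Mars* and -0.64 for *Mars2*, so most of the difference lay in *Mars2*. The ratio of *Eprs* to *Ears2* was 1.51 and 1.63 in MIZ-1WT and 2.70 and 2.55 in MIZ-1DPOZ, a log2 difference of 0.74 to which both genes contributed. For alanine, *Aars* to *Aars2* moved from 2.80 and 2.99 to 4.29 and 3.98, and there *Aars2* had a log2 fold change of -0.07 and did not pass. In the opposite direction, the ratio of *Farsa* to *Fars2*, for phenylalanine, was 4.99 and 5.73 in MIZ-1WT and 4.12 and 4.24 in MIZ-1DPOZ, a log2 difference of -0.35. In 16 pairs the cytosolic gene was the higher in all libraries, and the exception was tyrosine, where *Yars* to *Yars2* was 0.948 in MIZ-1WT replicate 2. Before division by length, *Yars* had 49.2 CPM and *Yars2* 27.5 CPM in that library, over 5943 and 3149 annotated bases. The size of a ratio within a library thus depends on annotated exon length. The ratios were not tested and are given as a description.

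**Figure D3:**
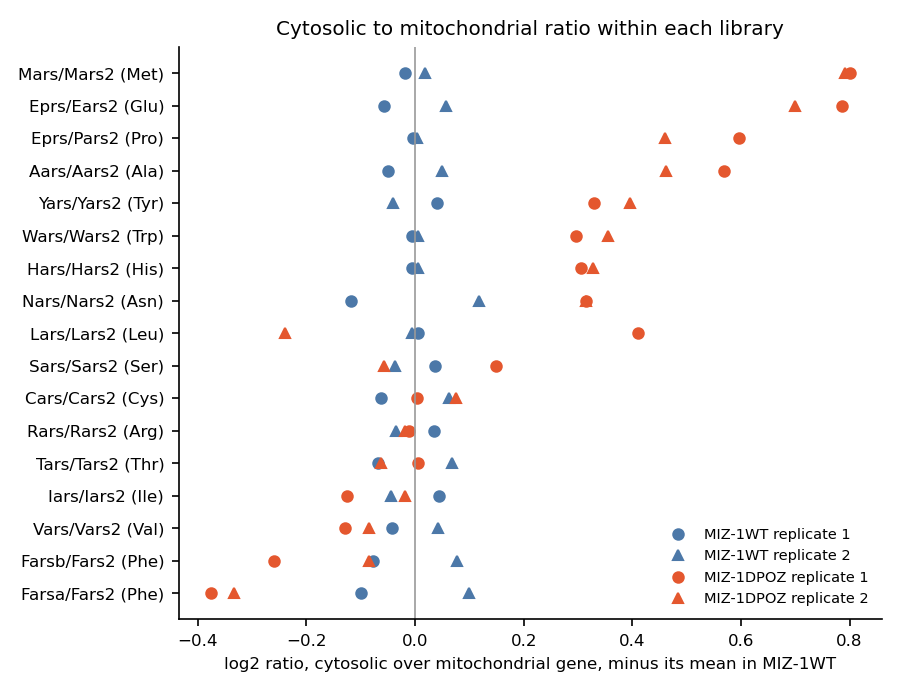
Log2 ratio of each cytosolic gene to its mitochondrial partner within each library, shown as the difference from the mean of that ratio in MIZ-1WT, for 17 pairs named with their amino acid; circles and triangles are replicates 1 and 2, blue is MIZ-1WT and red is MIZ-1DPOZ. The methionine pair lies farthest to the right at 0.80, and the *Farsa* to *Fars2* pair farthest to the left at -0.35.

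Synthetase genes are part of the amino acid response, and 30 genes of that response were listed, of which 28 were tested. In MIZ-1DPOZ 16 of them rose and 2 fell, with a median log2 fold change of 0.67, against 21.1% and 18.9% of all genes in the same directions, and without either of the MIZ-1WT libraries the 2 became 1. The summed level of the list did not follow this count, at 1232 and 1246 CPM in MIZ-1WT and 1233 and 1233 CPM in MIZ-1DPOZ, with overlap. The macrophage and proliferation markers moved with these genes too, and their part was not tested. *Asns*, asparagine synthetase, had 42 and 89 counts in MIZ-1WT and 710 and 583 in MIZ-1DPOZ, the largest value of the list, 3.20 on the log2 scale with a standard error of 0.32 (adjusted p = 0.00191, edgeR). *Cebpb*, a C/EBP transcription factor, had 129 and 135 counts in MIZ-1WT and 494 and 377 in MIZ-1DPOZ, a log2 fold change of 1.62. *Mthfd2*, of mitochondrial one-carbon metabolism, rose by 0.80 on the log2 scale, and *Psat1*, of serine synthesis, by 0.71. The smallest p of the list belonged to a gene that fell: *Slc1a5*, a neutral amino acid transporter, had 12022 and 11076 counts in MIZ-1WT and 7213 and 6601 in MIZ-1DPOZ, a log2 fold change of -0.84. Named after their values were seen, *Atf4* itself had 10352 and 11002 counts in MIZ-1WT and 11545 and 10089 in MIZ-1DPOZ, with a log2 fold change of -0.08 (adjusted p = 0.358, edgeR), and its targets *Ddit3* and *Trib3* had values of -0.18 and 0.04 and did not pass. RNA levels do not report the translation of *Atf4*, through which that factor is mainly controlled. Of the 16 response genes that rose, 14 had a larger log2 fold change than any synthetase gene.

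**Figure D4:**
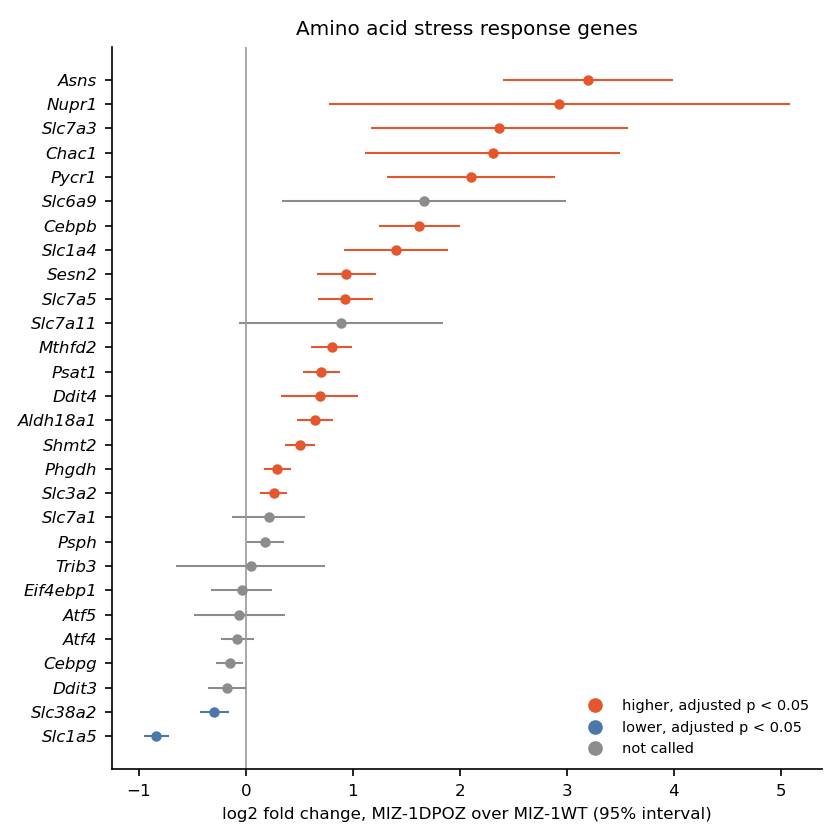
Log2 fold change, MIZ-1DPOZ over MIZ-1WT, of the 28 amino acid response genes tested, with 95% intervals from edgeR; red genes rose, blue genes fell and grey genes did not pass an adjusted p of 0.05. *Asns* lies at 3.20 with the other 15 red genes below it, *Atf4* lies at -0.08, and *Slc1a5* is lowest at -0.84.

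The list of cytosolic elongation factors, which bring charged tRNAs to the ribosome and move it along, was compared as the next step of protein synthesis. It also held other genes of elongation, among them the inhibitory kinase gene *Eef2k*. Of 7 genes 5 rose, *Eef2k* among them, with a median log2 fold change of 0.24, while 21.1% of all genes tested rose and 18.9% fell. *Eif5a*, which relieves stalled ribosomes, rose by 0.39 on the log2 scale, *Eef2k*, the kinase that inhibits eEF2, by 0.46, *Eef1g* by 0.24 and *Eef1d* by 0.18. *Eef1g* and *Eef1d* encode subunits of the complex that reloads eEF1A with GTP. Named after their values were seen, *Eef1a1*, whose product brings charged tRNAs, rose by 0.26, while *Eef2*, whose product moves the ribosome, had 0.14 and did not pass. *Eef1b2*, at 0.12, did not pass either. Among 13 further genes of tRNA charging and proofreading 1 rose and 3 fell, with a median of -0.03. Those that fell were 23.1% of the list, near the share of all genes, so their count is no result about the list. *Tarsl2*, a second cytosolic threonyl enzyme, fell by 0.56 on the log2 scale from 501 and 548 counts to 397 and 365, opposite in direction to *Tars*. *Lrrc47* fell by 0.25 and *Prorsd1*, which carries a prolyl-tRNA editing domain, by 0.22.

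Markers of macrophages, proliferation and plasma cells moved with genotype in the same libraries, in which 21.1% of all genes tested rose and 18.9% fell. All 16 macrophage genes rose, with a median log2 fold change of 1.98, and their summed level was 980 and 1305 CPM in MIZ-1WT replicates 1 and 2 and 5839 and 3650 CPM in MIZ-1DPOZ replicates 1 and 2. All 10 proliferation genes rose, with a median of 2.03 and summed levels of 236 and 235 CPM in MIZ-1WT and 1008 and 872 CPM in MIZ-1DPOZ. Of 8 plasma cell genes 6 rose, with a median of 0.67, from 912 and 1235 CPM to 2741 and 2580 CPM. Between the replicates of MIZ-1DPOZ, the macrophage genes differed by a median log2 of -0.68, replicate 2 minus replicate 1, all 20 cytosolic synthetase genes by -0.012 and the 11 of them that rose by -0.06. Between the replicates of MIZ-1WT the same medians were 0.39, 0.040 and 0.057. For the plasma cell genes the medians were -0.023 in MIZ-1DPOZ and 0.14 in MIZ-1WT, and for the proliferation genes -0.25 and -0.033. The part of these cells in the synthetase values was not tested. Of 12 T cell genes 2 rose, a share of 16.7% that is no more than that of all genes, so it is no result about T cells. The summed levels of the T cell genes lay between 67.8 and 95.4 CPM over the 4 libraries. Of 6 neutrophil genes tested 2 rose, with summed levels between 4.24 and 16.6 CPM, and *Elane* and *Mpo* had at most 3 counts in any library. The 8 erythroid genes had summed levels between 40.2 and 117 CPM, highest in MIZ-1DPOZ replicate 2, and log2 fold changes between 0.30 and 1.01 that did not pass.

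**Figure D5:**
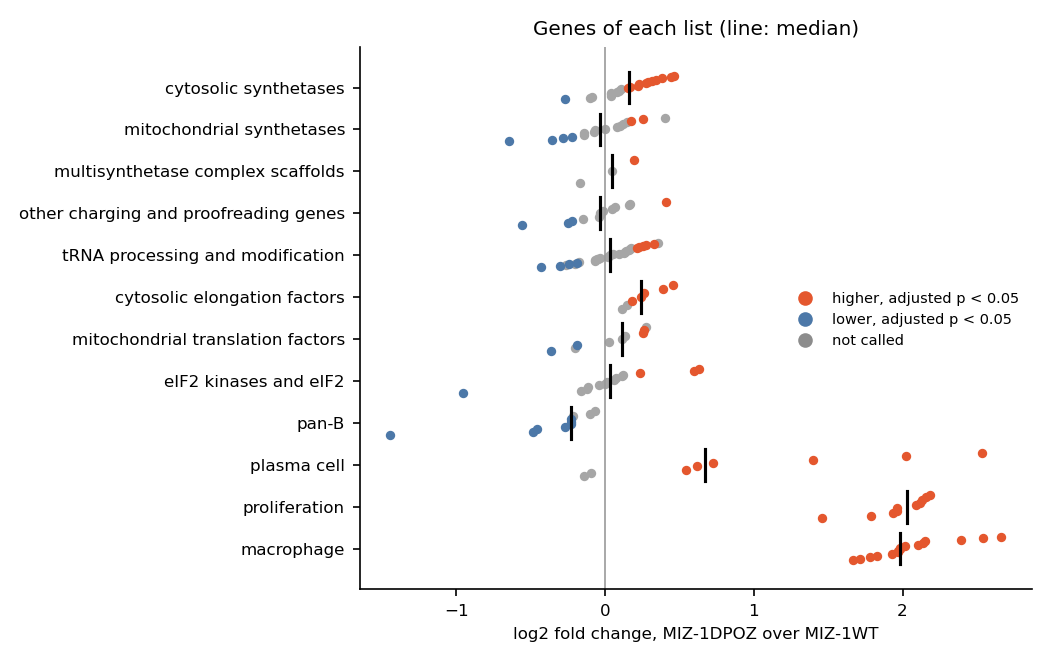
Log2 fold change, MIZ-1DPOZ over MIZ-1WT, of each tested gene of 12 lists; red points rose, blue points fell and grey points did not pass an adjusted p of 0.05 in edgeR's test, black lines are list medians, and points are spread vertically within a list by rank for legibility. The cytosolic synthetases have their median at 0.16 and the mitochondrial synthetases at -0.035, while the macrophage and proliferation genes lie near 2. With library size alone as scaling, the mitochondrial median is 0.026, against 0.054 for all genes tested. With a filter on a mean of 30 CPM it is 0.055, against -0.0026 for all genes tested.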

How the data were processed

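Total RNA of B220+ splenocytes was sequenced from both ends after ribosomal RNA depletion with a stranded kit. The authors trimmed the reads with Trimmomatic, mapped them to mm10 with TopHat2, given as version 2.1.0 in the submitters' processing notes, counted them with HTSeq and deposited raw counts per Ensembl gene, neither normalized nor pooled. The strand setting and Ensembl release are not given in the sources used here. The 5 HTSeq summary lines entered neither library sizes nor tests. They held reads outside genes at 21.1% to 27.2%, ambiguous reads at 0.281% to 0.302% and reads without a unique alignment at 42.8% to 44.15% of the reads in the table.

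Of 41214 genes, 40254 received a symbol from GENCODE M21 (GRCm38). A minimum of 10 counts in 2 or more libraries left 14554 genes, which were fitted together in edgeR 4.0.16 (R 4.3.3) with TMM normalization and the quasi-likelihood test, and p-values were adjusted by Benjamini-Hochberg over all of them. CPM are TMM-normalized; levels per length divide CPM by the union of annotated exons in kilobases. The paper describes the 2 libraries of each genotype as biological replicates. The p-values set the difference between genotypes against the spread between replicates, with variability estimated in part across all genes tested.

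The members and lists were chosen with earlier results of these data known. All members were accounted for. Those past the threshold were named, the 8 with the smallest p in each direction with full values; of the others, the 4 of highest level per length; of each other list, up to 4 genes with the smallest p past the threshold. Some items that meet these rules are not reported here. Lists held synthetases by compartment, class and complex, scaffolds, other charging genes, amino acid response, eIF2 genes, elongation factors, mitochondrial translation factors, tRNA processing genes, and markers of pan-B, macrophage, T, plasma, neutrophil, erythroid and proliferating cells.

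Alternatives were DESeq2 size factors within edgeR, library size only, the Wald test of DESeq2 1.42.0, no filter on low counts, a mean of at least 30 CPM, a replicate block, removal of 199 immunoglobulin segments, and leaving out each library. The procedure was tested on simulated counts.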

Additional observations from a re-analysis of the deposited data

How the results depend on the processing

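The calls depended most on the MIZ-1WT libraries. With 13 synthetase genes called higher, leaving out each library gave from 3 to 13, and with 5 called lower it gave from 1 to 5, the lowest in both cases without MIZ-1WT replicate 1. Those fits keep 1 library in a genotype, which is assumed to vary like the others. With library size alone as scaling, 3 genes were called lower, the cytosolic median log2 fold change was 0.22 and the mitochondrial median 0.026, while the median of all genes shifted from -0.0064 to 0.05. With a filter on a mean of 30 CPM, which kept 28 members (20 cytosolic and 8 mitochondrial), 3 were called lower, and the medians were 0.24 and 0.055. Leaving out each library gave cytosolic medians from 0.15 to 0.19 and mitochondrial medians from -0.046 to 0.020. Neither the sign of the mitochondrial median nor its place relative to the median of all genes is fixed. With 16 amino acid response genes called higher, the 30 CPM filter, which kept 11 of them for testing, gave 6, and leaving out each library gave from 11 to 18; with 2 called lower, it gave from 1 to 3. *Vars* reversed without MIZ-1WT replicate 1, at -0.0077, gave up to 0.087 without another library, and did not pass in any fit.

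The replicate numbers in the labels are not stated to pair the samples, and deviations of same-numbered libraries correlated at -0.0688. With the replicate block, 3 synthetase genes were called lower, 8 cytosolic and 1 mitochondrial gene were called higher, and calls over all genes went from 5822 to 4732. Over the 23 named members, DESeq2 size factors and the removal of immunoglobulin segments changed no call, and library size alone, the Wald test, no filter, the 30 CPM filter and the replicate block ended between 1 and 6 calls without reversing a direction. Depth did not limit detection of the members, the lowest of which had 354 counts; 2 libraries per genotype did limit the smallest effect that could be called.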

Other observations

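Further lists of translation genes had shares of calls near those over all genes tested, of which 21.1% rose and 18.9% fell, so their counts are no result about the lists and single genes are given as values. Of 14 genes of eIF2, its exchange factor and its kinases and phosphatases, 3 rose and 1 fell in MIZ-1DPOZ, with a median log2 fold change of 0.04. *Eif2b3*, a subunit of the exchange factor, had 948 and 858 counts in MIZ-1WT and 545 and 451 in MIZ-1DPOZ and fell by 0.96 on the log2 scale (adjusted p = 0.00179, edgeR, Benjamini-Hochberg). *Eif2ak2*, the kinase that senses double-stranded RNA, rose by 0.63, *Ppp1r15a*, which directs dephosphorylation of eIF2, by 0.60, and *Eif2s1*, the subunit that is phosphorylated, by 0.23. Of 9 mitochondrial translation factors 2 rose and 2 fell, with a median of 0.12. The initiation factor *Mtif3* fell by 0.36 and *Mtif2* rose by 0.26, while *Gfm1*, an elongation factor, rose by 0.26 and *Gfm2*, a factor of ribosome recycling, fell by 0.19.

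Of 29 genes of tRNA processing and modification tested, 5 rose and 4 fell, with a median log2 fold change of 0.03. *Dus2*, a dihydrouridine synthase, fell by 0.43 from 1649 and 1498 counts to 1336 and 1158. *Trnt1*, which adds the CCA end that every synthetase charges, fell by 0.30 from 5924 and 6107 counts to 5461 and 4964. *Elac2*, the nuclease that trims the 3′ trailer, rose by 0.27. *Lars2*, which did not pass with all libraries, had a log2 fold change of 0.67 (adjusted p = 0.00161, edgeR) without MIZ-1DPOZ replicate 1, and over the other fits its value ranged down to 0.09.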
